A study of Mus musculus with 99 samples.

Results

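The genes described here encode potassium channels and their accessory subunits, other than the inward rectifiers. They are the protein-coding genes whose GENCODE symbol is Kcn, further letters and a number, with the Kcnj genes left out. The rule found 77 genes among the 55335 gene identifiers counted, and 15 Kcnj genes were set aside. The rule itself uses symbols and no expression values, though the set was chosen with earlier results of these data known.

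The 77 genes were measured by RNA sequencing of bulk tissue punches from juvenile wildtype C57BL/6 mice. Their dams drank water with fentanyl, an opioid, at 10 µg/ml from embryonic day 0 until weaning, or water alone. In pups of both sexes, punches were taken of 2 reward regions, ventral tegmental area (VTA) and nucleus accumbens (NAc), of 2 cortical areas, prelimbic (PrL) and primary somatosensory (S1), and of ventrobasal thalamus (VBT). Region, sex and exposure give 20 groups of 5 libraries each, except that S1 from water males has 4. All mice were wildtype. The labels name no litters, and nothing says that the libraries of a group came from separate dams, so p-values measure the spread between these libraries, part of which may be technical.

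Potassium channels let potassium leave the cell and so set the resting potential, the length of the action potential and the rate of firing. Voltage-gated (Kv) channels are built from pore-forming subunits of the Kv1 to Kv4, Kv7 and Kcnh families, and silent subunits join Kv2 subunits without forming a channel alone. Calcium-activated channels couple calcium entry to repolarization, two-pore-domain channels carry leak current, and the beta, KChIP and Kcne subunits alter how the pore-forming subunits gate and travel to the membrane. In the thalamus and in fast-spiking cells, Kv3 channels are known for the rapid repolarization that allows high firing rates.

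The 98 libraries used held between 23032078 and 52069639 counts, with a median of 36024982, and counts for 24079 to 27347 genes. The library VTA male water 3 held 16515545 counts over 6333 genes, with a count for 28 of the 77 channel genes, and was left out. Of the 77 genes, 65 had a count in every library used. The dopamine neuron, thalamus and striatum marker lists were each higher in every library of VTA, VBT and NAc than in any library of the other regions, and the cortex list was higher in every S1 and PrL library than in the rest. Yet 8 water libraries also carried markers of neighbouring tissue: choroid plexus in VTA female water 5, VTA male water 2 and VBT female water 2, striatum in VBT female water 2 and VBT male water 3, olfactory bulb in PrL female water 5 and PrL male water 3, and cortex in NAc female water 1 and NAc female water 5. Region results are given with these 8 libraries and, where they move, without them. Choroid plexus markers were also raised in 3 more water libraries, S1 female water 2, PrL male water 1 and VBT female water 3, and a further fit left out all 11. Fentanyl libraries carried such markers too. Choroid plexus markers summed to 675 CPM in VBT male fentanyl 5, 348 in NAc male fentanyl 3 and 238 in S1 male fentanyl 2. Cortex markers reached 830 CPM in NAc fentanyl females, and striatum markers 293 CPM in VBT fentanyl males. These libraries stayed in the fentanyl tests, except where each library was left out in turn.

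For 54 of the 77 genes the sequence of the 250 bases before the RefSeq start site was at hand (RefSeq, GRCm38.p6). Their median CpG count was 10 and their median GC content 61%, against 6 and 52% over the promoters of 27025 genes. The letters TATAAA, searched on both strands, were in 0 of the 54 windows and in 13.0% of all windows of this length. The letters CCAAT were in 12 windows (22.2%, against 34.5% of all), and GGGCGG was in 26 (48.1%, against 32.9% of all). These matches describe the windows and name no binding site. For channel genes a window that begins a GENCODE transcript was preferred, while for all genes the first listed window was taken. The set of all genes was also not limited to protein-coding genes. The CpG, GC and motif values are therefore compared between windows chosen by unlike rules, and no conclusion is drawn from the contrasts. Of the 54 channel gene windows, 38 begin a transcript that GENCODE also lists. Windows of 4 genes on which the results below turn are shown with each CpG in capitals: the Kv3 subunit gene Kcnc1 and the accessory subunit gene Kcne4, both highest in VBT, the Kv1 beta subunit gene Kcnab1, highest in NAc, and Kcna3, a Kv1 gene that was lower in NAc of fentanyl males. All 4 lie on the forward strand and read 5′ to 3′.
Kcnc1, chr7:46396218-46396467: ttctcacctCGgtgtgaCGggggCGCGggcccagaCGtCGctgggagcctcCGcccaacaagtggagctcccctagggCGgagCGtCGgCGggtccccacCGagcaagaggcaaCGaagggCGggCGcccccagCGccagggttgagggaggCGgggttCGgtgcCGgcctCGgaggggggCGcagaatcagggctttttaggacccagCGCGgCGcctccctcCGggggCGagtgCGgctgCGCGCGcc
Kcne4, chr1:78816661-78816910: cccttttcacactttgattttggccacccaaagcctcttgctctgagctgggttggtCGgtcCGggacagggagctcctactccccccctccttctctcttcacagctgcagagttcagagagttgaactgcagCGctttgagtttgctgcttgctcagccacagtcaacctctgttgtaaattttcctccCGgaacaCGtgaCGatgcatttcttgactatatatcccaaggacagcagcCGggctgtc
Kcnab1, chr3:65187853-65188102: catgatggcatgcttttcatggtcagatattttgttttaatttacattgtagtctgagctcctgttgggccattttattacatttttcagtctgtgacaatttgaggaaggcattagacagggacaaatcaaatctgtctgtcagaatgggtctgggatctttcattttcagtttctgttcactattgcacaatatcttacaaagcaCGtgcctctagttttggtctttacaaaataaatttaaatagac
Kcna3, chr3:107035912-107036161: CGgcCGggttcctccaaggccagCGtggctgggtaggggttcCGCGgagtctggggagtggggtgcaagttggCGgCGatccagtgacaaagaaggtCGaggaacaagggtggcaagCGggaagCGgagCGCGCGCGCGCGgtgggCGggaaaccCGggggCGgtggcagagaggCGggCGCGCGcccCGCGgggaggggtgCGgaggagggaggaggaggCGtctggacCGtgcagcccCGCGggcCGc
Kcnc1 and Kcna3 each have a GC content of 74.4% here, with 30 and 31 CpG. Kcne4 has 7 CpG at 53.2% GC. The Kcnab1 window has 1 CpG at 35.6% GC and lies inside the gene as GENCODE draws it, before one of its downstream starts.

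The levels of the channel genes were first compared between regions in the 48 water libraries. A level is in CPM, the count scaled to the library's total, unless it is given per kb of exon. A region difference is the log2 difference from the mean of the other 4 regions, averaged over the sexes, from edgeR's quasi-likelihood test, and a gene is called at an adjusted p (Benjamini-Hochberg over all genes tested) under 0.05. In bulk punches a lower level can come from fewer cells of a type or from less RNA per cell, and the 2 cannot be told apart.

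Of the 68 channel genes tested, 67 differed between the regions. This is read against 90.7% of all 21468 genes tested. The exception was Kcnq1, a Kv7 gene with mean levels between 0.416 and 0.727 CPM. The spread was wide: the median channel gene was 3.67-fold higher in its highest than in its lowest region, 32 genes were over 4-fold apart and 17 over 10-fold. Only Kcnn2 (1.33-fold) and Kcnd1 (1.48-fold) were under 1.5-fold. Kcnn2 encodes a small-conductance calcium-activated channel and Kcnd1 a Kv4 subunit.

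VTA had the most channel genes below the other regions. There 35 of the 68 genes were called lower, against 29.3% of all genes, and 20 were called higher, against 35.5%. In VBT 33 were higher and 25 lower, against 33.7% and 33.4% of all genes. In S1 33 were higher and 17 lower, against 29.5% and 30.2%. PrL had 33 higher and 22 lower, against 29% and 28.8%. NAc had 26 higher and 31 lower, against 28.5% and 30.6%. At a difference of at least 2-fold, 20 genes were lower in VTA (7.5% of all genes), 17 were lower in VBT (11.3%) and 16 were higher in VBT (8.34%). By the same rule 13 were higher in S1 (7.31%), 14 in PrL (7.16%), 12 in NAc (7.25%) and 9 in VTA (9.73%), and 6 were lower in S1 (5.92%), 6 in PrL (5.71%) and 10 in NAc (5.06%). The median difference of the channel genes was -0.37 in VTA, where the median of all genes was 0.03. Glial markers also differed between the regions. Over the libraries of both exposures the oligodendrocyte score, a mean log2 of CPM plus 1, was 10.8 ± 0.253 in VTA (SD, n = 19) and 11.1 ± 0.361 in VBT (n = 20), against 9.43 ± 0.190 in NAc, 8.52 ± 0.586 in S1 and 6.83 ± 0.592 in PrL. The astrocyte score was highest in VTA, at 7.88 ± 0.338, with 7.49 in VBT and 7.18 in S1, while NAc had 6.83 and PrL 6.86. The part of glial RNA in the channel levels was not tested.

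**Figure D1:**
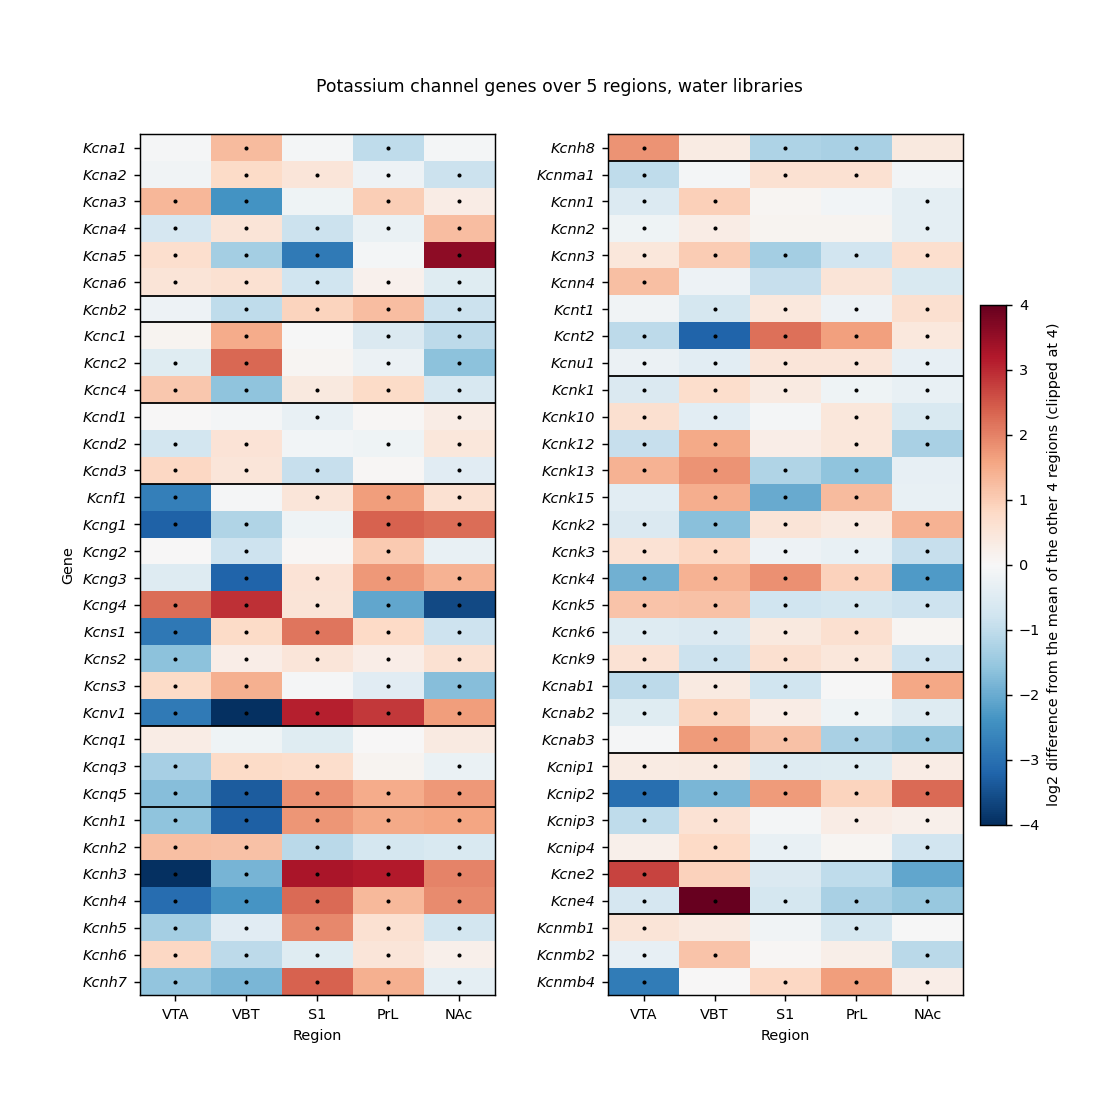
The heat map shows, for 64 of the 68 channel genes tested, the log2 difference of each region from the mean of the other 4 in water libraries, clipped at 4, with black lines between families. Dots mark an adjusted p under 0.05 (edgeR). Kcnh3 and Kcnv1 are high in S1 and PrL and low in VTA and VBT, and Kcne4 is high in VBT.

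Summed over the 77 genes, the level per kb was 599 ± 40.6 in VTA (SD, n = 9), 903 ± 69.7 in VBT (n = 10), 913 ± 45.0 in S1 (n = 9), 797 ± 42.5 in PrL (n = 10) and 760 ± 34.7 in NAc (n = 10), in CPM per kb. VBT and S1 differed by less than an SD, and VTA lay lowest, with no library above 661, where PrL, NAc, VBT and S1 began at 762, 702, 762 and 860. Per kb of exon and averaged over the 5 regions, the most abundant were the Kv1 beta subunit gene Kcnab2 (73.7 CPM per kb) and the axonal Kv1 gene Kcna2 (39.8). The KChIP gene Kcnip2 (31.1), the two-pore-domain gene Kcnk1 (30.4), the KChIP gene Kcnip3 (30.2) and the Kv3 gene Kcnc1 (29.8) came next. Kcna1 (28.1) and the A-current gene Kcnd2 (24.3) were also among the 10 highest.

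In 11 genes every library of the highest region was above every library of the other regions, where 8.22% of all genes did so. Among them were Kcnc1, Kcnc2 and Kcne4 in VBT, Kcnh7 and Kcns1 in S1, Kcnf1 in PrL, and Kcna5, Kcnab1 and Kcnk2 in NAc. None of the 11 was in VTA, where 3.74% of all genes were highest without overlap, and VTA was the highest region of 13 of the 68 channel genes, against 30.4% of all genes. Without the 8 libraries that carried neighbouring tissue, the count was 17 (14.4% of all genes), and it held all 11. The added 6 were Kcnip2 and Kcna4 in NAc, Kcnab2, Kcnip4 and Kcnk12 in VBT, and Kcnmb4 in PrL. Without the 11 libraries the count was also 17 (14.8% of all genes). In the fentanyl libraries, which took no part in the choice of region, all 11 genes had the same highest region, as did 59 of the 68 genes (86.8%, against 73.8% of all genes). In 10 genes the lowest region lay apart from the others in the same way, against 5.86% of all genes. That region was VTA for Kcnh3, Kcnq3, Kcnip3, Kcnmb4, Kcnf1, Kcns1 and Kcns2, VBT for Kcna3 and Kcnt2, and NAc for Kcnc2.

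The Kv3 family, whose channels open at strong depolarization and close fast, was highest in VBT. Its 4 genes summed to 184 ± 23.5 CPM per kb in VBT (SD, n = 10), against 101 ± 17.6 in VTA, 90.7 ± 6.00 in S1, 71.7 ± 6.13 in PrL and 46.6 ± 8.46 in NAc. This was 20.4% of the level of all 77 genes in VBT and 6.13% in NAc. In VBT Kcnc1 and Kcnc2 were called higher and Kcnc4 lower, and in NAc Kcnc1, Kcnc2 and Kcnc4 were all lower.

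Kcnc1, at chromosome 7 from 46396497 to 46438704 (GRCm38), had a lowest, median and highest VBT level of 457, 549 and 606 CPM. The same 3 values were 239, 279 and 329 in VTA, 224, 239 and 301 in S1, 151, 165 and 243 in PrL, and 134, 148 and 174 in NAc. No VBT library overlapped with any other region, and the VBT difference was 1.5 ± 0.05 (SE, adjusted p = 1.66e-26, edgeR). Its window above, rich in CpG, contrasts with that of Kcne4, which shared its highest region.

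Kcnc2, at chromosome 10 from 112271121 to 112467024, had a VBT range of 245 to 538 CPM with a median of 478, and its highest value elsewhere was 150, in S1. Its VBT difference was 2.28 ± 0.09 and its NAc difference -1.64, with NAc libraries between 31.7 and 85.4 CPM. The lowest VBT value, 245 CPM, was in VBT male water 3, the library with the highest striatum markers and the lowest thalamus markers of VBT.

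Kcnc4, a Kv3 gene with fast inactivation, went the other way. It was highest in VTA, at 85.9 to 119 CPM (mean 105 ± 10.8 SD, n = 9), and lowest in VBT, at 17.0 to 33.8 CPM (21.9 ± 5.81, n = 10). The differences were 1.07 ± 0.11 in VTA and -1.59 ± 0.12 in VBT. The VTA and VBT libraries did not overlap, whereas the upper PrL libraries, up to 104 CPM, overlapped with VTA.

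**Figure D2:**
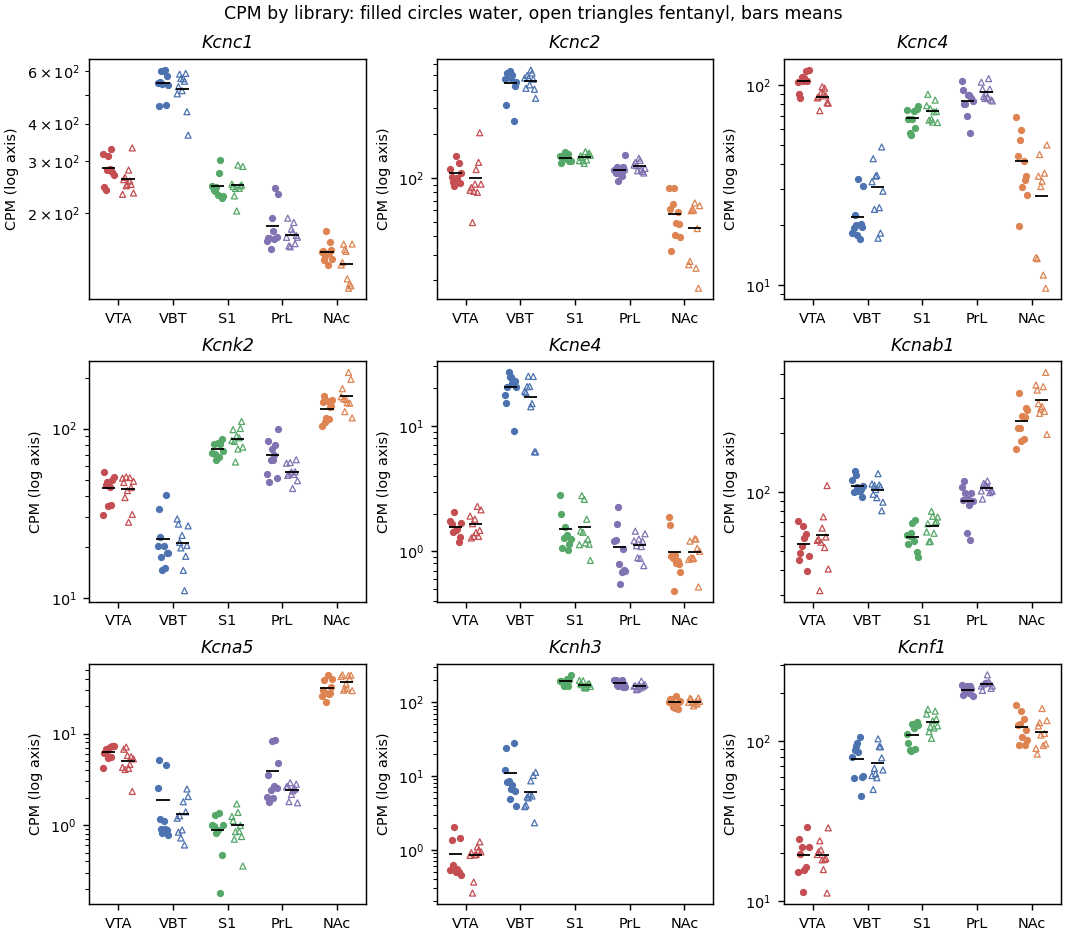
CPM of 9 channel genes by library on log axes, in the 5 regions, with water libraries as filled circles, fentanyl libraries as open triangles and bars at the means. Kcnc1, Kcnc2 and Kcne4 are highest in VBT, Kcnc4 is lowest there in water libraries, Kcna5, Kcnab1 and Kcnk2 are highest in NAc, and the water and fentanyl libraries of a region overlap.

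The Kv1 family sets the firing threshold and repolarizes axons. Its 6 tested genes did not share a region. The sum per kb was 142 ± 7.55 CPM per kb in VBT and between 82.6 and 107 in the other regions. Kcna1 and Kcna2, which pair in axons, were highest in VBT, at 235 and 658 CPM, with VBT differences of 1.25 and 0.76. Kcna4 was highest in NAc, at 63.9 CPM.

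Kcna5, at chromosome 6 from 126532551 to 126535412, had the largest difference of the channel genes above the other regions in NAc, 3.59 ± 0.21 (adjusted p = 3.26e-18, edgeR). Its NAc libraries lay between 22.1 and 43.6 CPM with a median of 28.7, against 4.17 to 7.40 in VTA, 0.781 to 5.11 in VBT, 0.181 to 1.35 in S1 and 1.78 to 8.50 in PrL. No NAc library overlapped with another region, and NAc was 5.04-fold above VTA, the next region. S1 was lowest, with a difference of -2.82.

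Kcna3, at chromosome 3 from 107036169 to 107038070, encodes a Kv1 subunit known from lymphocytes and microglia as well as neurons. It was highest in VTA (13.2 ± 1.74 CPM, difference 1.32 ± 0.09) and lowest in VBT (1.54 ± 0.441 CPM, difference -2.40 ± 0.12). PrL had 10.2, NAc 7.45 and S1 5.42 CPM. All VBT libraries, between 0.901 and 2.37 CPM, lay below all others.

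The 3 Kv1 beta subunit genes, whose products bind Kv1 channels and speed their inactivation or their delivery, were all called higher in VBT (33.7% of all genes). They summed to 169 ± 21.1 CPM per kb there, against 81.9 to 125 in the other regions. Kcnab2 was at 617 CPM in VBT (difference 0.89 ± 0.07) and Kcnab3 at 131 (1.69 ± 0.17). Kcnab3 was also higher in S1, at 101 CPM, and low in PrL and NAc, at 26.6 and 24.9.

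Kcnab1, at chromosome 3 from 65109384 to 65378223, was the exception within that family. Its NAc libraries lay between 166 and 319 CPM with a median of 227, and its next region, VBT, between 94.6 and 129. VTA reached 71.5, S1 72.4 and PrL 114 CPM at most. The NAc difference was 1.54 ± 0.09, and 201 bases of its exons overlap a gene on the other strand.

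Kv2 genes carry most delayed-rectifier current of cell bodies. Kcnb2 was called higher in both cortical regions, at 64.8 CPM in PrL and 53.8 in S1, against 31.6 in VTA, 21.7 in NAc and 18 in VBT, with differences of 1.22 in PrL and 0.88 in S1.

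The silent subunits, which modify Kv2 channels, had 6 of 9 tested genes higher and 0 lower in S1 (29.5% and 30.2% of all genes). In PrL 7 were higher and 2 lower (29% and 28.8%), and in VTA 2 were higher and 5 lower (35.5% and 29.3%). Their sum per kb was 100 ± 4.40 CPM per kb in PrL, 84.0 ± 8.17 in S1, 66.0 ± 10.2 in NAc, 46.0 ± 4.67 in VBT and 23.1 ± 3.9 in VTA.

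Kcnf1, at chromosome 12 from 17172100 to 17176888, had a PrL range of 192 to 226 CPM with a median of 214. NAc reached 169 at most, S1 132, VBT 107 and VTA 29.2 CPM. The PrL difference was 1.69 ± 0.10 and the VTA difference -2.73 ± 0.14, and PrL and VTA each lay apart from every other region.

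Kcnv1, another silent subunit gene, was at 161 CPM in S1 and 138 in PrL, against 2.06 in VBT, where its difference was -4.79 ± 0.28. Its VBT values ran from 0.36 to 7.0 CPM around a median of 1.08. Kcng1 was at 44.0 CPM in PrL and 43.5 in NAc, and at 2.10 in VTA (difference -3.23 ± 0.22). Kcng4 was the reverse: 45.9 CPM in VBT and 34.2 in VTA, and 1.37 in NAc (difference -3.60 ± 0.26). Kcng3 was highest in PrL at 5.34 CPM (difference 1.74).

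Kcns1, at chromosome 2 from 164163619 to 164171113, is the silent subunit gene that marked S1. Its S1 libraries lay between 19.8 and 36.1 CPM, above the PrL maximum of 17.0 and the VBT maximum of 16.2. The S1 difference was 2.13 ± 0.10. Kcns3 was lower in NAc (3.01 CPM, difference -1.71).

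The Kcnh family, of the EAG, ERG and ELK channels, was highest in S1. Its 8 genes summed to 99.3 ± 5.46 CPM per kb in S1, 79.0 ± 5.32 in PrL, 58.5 ± 3.98 in NAc, 30.4 ± 2.03 in VTA and 27.2 ± 3.77 in VBT. In S1 5 were higher and 3 lower (29.5% and 30.2% of all genes), in PrL 6 and 2 (29% and 28.8%), in VTA 3 and 5 (35.5% and 29.3%), and in VBT 1 and 6 (33.7% and 33.4%). The 3 lower in S1 and the 3 higher in VTA are near the shares of all genes.

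Kcnh3, an ELK gene at chromosome 15 from 99224861 to 99242817, had a lowest, median and highest level of 165, 192 and 236 CPM in S1 and 161, 180 and 201 in PrL. NAc had 82.1, 101 and 122, VBT 3.93, 7.90 and 28.2, and VTA 0.449, 0.544 and 2.01 CPM. S1 and PrL overlapped with each other and with no other region. The VTA difference was -6.57 ± 0.31 (adjusted p = 2.52e-21, edgeR), and S1 was 216-fold above VTA. Kcnh4, also of the ELK type, was at 31.3 CPM in S1, 26.8 in NAc and 18.1 in PrL, and at 2.44 in VBT and 1.75 in VTA.

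Kcnh7, an ERG gene at chromosome 2 from 62693414 to 63184287, lay between 274 and 456 CPM in S1 and between 176 and 262 in PrL, with S1 above every other library and a difference of 2.36 ± 0.12. Its exons share 696 bases with a gene on the other strand. Kcnh2, the ERG gene known from cardiac repolarization, went against Kcnh7: 96.6 CPM in VTA and 86.4 in VBT, against 25.4 to 35.5 in the other regions. The EAG gene Kcnh1 was at 115 to 132 CPM in S1, PrL and NAc, and at 8.02 in VBT (difference -3.27 ± 0.21). Kcnh8 was highest in VTA, at 2.54 CPM (difference 1.81 ± 0.21).

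Kv7 genes encode the M-current, a slow brake on firing. The 5 genes summed to 34.5 ± 1.49 CPM per kb in VTA and 79.2 ± 2.96 in S1, and VTA had 0 called higher and 4 lower (35.5% and 29.3% of all genes). Kcnq5 was at 150 CPM in S1 and in NAc and at 8.43 in VBT (difference -3.33 ± 0.20). Kcnq3, which joins M-current channels, was at 357 CPM in S1 and 353 in VBT and at 125 in VTA (difference -1.32).

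Among the calcium- and sodium-activated channels, the BK pore gene Kcnma1 was at 425 CPM in S1 and 420 in PrL, against 186 in VTA. The small-conductance gene Kcnn3 was lowest in S1, at 21.8 CPM (difference -1.37), and at 64.2 to 79.3 CPM in VTA, NAc and VBT. The sodium-activated gene Kcnt2 was at 75.8 CPM in S1 and 3.70 in VBT (difference -3.19). Kcnmb4, the neuronal beta subunit of BK, was at 67.3 CPM in PrL (difference 1.68 ± 0.08) and 6.04 in VTA (-2.78 ± 0.11), and all its VTA libraries lay below all others.

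Among the two-pore-domain genes, NAc had 1 of 11 tested called higher and 7 lower, against 28.5% and 30.6% of all genes. The 1 higher was Kcnk2, the TREK-1 gene at chromosome 1 from 189207930 to 189402273. Its NAc libraries lay between 104 and 156 CPM, above the PrL maximum of 99.6, with a difference of 1.38 ± 0.10. Kcnk4, another mechanically gated member, was the reverse, with 27.5 CPM in S1 and 3.09 in NAc (difference -2.25 ± 0.13). Kcnk4 shares exon bases with a gene on its own strand.

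Kcnk13, a two-pore-domain gene known from microglia, was at 22.9 CPM in VBT, 19.9 in VTA and 3.57 to 7.71 in the other regions. The differences were 1.78 ± 0.13 in VBT and 1.38 ± 0.14 in VTA. Its highest library, VBT male water 3 at 36.4 CPM, also had the highest microglia score of VBT (5.73, the mean log2 of CPM plus 1 over 6 markers), and whether the 2 are linked was not tested. Kcnk15 was called lower in S1 (difference -2.0), with all 5 region means below 0.35 CPM.

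Kv4 channels carry the A-type current of dendrites, and KChIP subunits bind them. Kcnd2 was at 164 CPM in NAc and 156 in VBT, against 85.8 in VTA, and Kcnd3 was highest in VTA at 178 CPM. Among the KChIP genes, Kcnip2 was at 237 ± 65.9 CPM in NAc (SD, n = 10) and 12.6 ± 2.67 in VTA (n = 9), with differences of 2.26 ± 0.16 and -3.03 ± 0.25. Its range in NAc was 128 to 350 CPM, and S1 lay between 138 and 195, so NAc and S1 overlapped. In VBT the median of Kcnip2 was 14.4 CPM and the highest value 70.4.

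Kcne4, a single-span subunit gene at chromosome 1 from 78816758 to 78820028, had the largest difference of the channel genes above the other regions in VBT, 4.17 ± 0.12 (adjusted p = 1.63e-29, edgeR). Its VBT water libraries lay between 9.13 and 26.8 CPM with a median of 21.3. The highest value in any other region was 2.82 CPM, in S1, and VBT was 13.1-fold above VTA, the next region. VBT male water 3 had the lowest of these values, 9.13 CPM. In the VBT fentanyl libraries Kcne4 lay between 6.21 and 25.0 CPM.

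Kcne2, at chromosome 16 from 92292389 to 92298129, is known as a channel subunit of the choroid plexus, the tissue that secretes cerebrospinal fluid. It was called higher in VTA water libraries (2.72 ± 0.64), but 2 of the 9 held 83.6% of their summed CPM of it. VTA male water 2 had 7.80 CPM and VTA female water 5 had 4.33, and the other 7 lay between 0.158 and 0.515. The 7 choroid plexus markers summed to 1087 CPM in VTA male water 2 and 416 in VTA female water 5. VBT female water 2 had 20.9 CPM of Kcne2 beside 4641 CPM of these markers.

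Without the 8 libraries that carried neighbouring tissue the VTA difference of Kcne2 was 0.77, and it did not pass (adjusted p = 0.267, edgeR). S1 female water 2, PrL male water 1 and VBT female water 3 were kept there, with 423, 287 and 256 CPM of the markers. Without these 3 as well it was 1.45 ± 0.42 and passed (adjusted p = 0.00316, edgeR), so the call depended on which libraries were left out. In the fentanyl libraries, none of which took part in that test, it was 0.08 (adjusted p = 0.906, edgeR). That fit kept VBT male fentanyl 5, S1 male fentanyl 2 and NAc male fentanyl 3, at 4.07, 2.47 and 1.36 CPM of Kcne2. The VTA fentanyl libraries lay between 0.0778 and 0.335 CPM. With those libraries of other regions kept, the value cannot decide whether Kcne2 is higher in VTA. Across the 98 libraries, every library with more than 0.515 CPM of Kcne2 had at least 238 CPM of the markers.

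**Figure D3:**
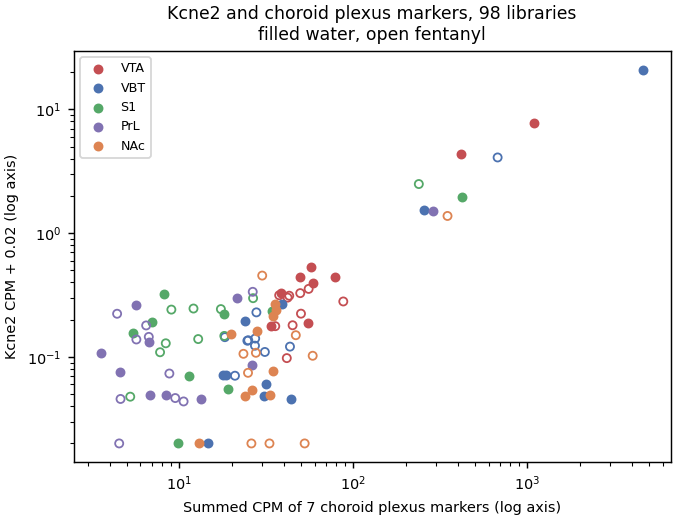
Kcne2 (CPM plus 0.02) against the summed CPM of 7 choroid plexus markers, both on log axes, for 98 libraries coloured by region, filled for water and open for fentanyl. The library at the upper right is VBT female water 2, with 20.9 CPM of Kcne2, and the libraries with high Kcne2 lie at high marker sums.

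Pairs of regions separated the channel genes to different degrees. The libraries did not overlap in 60.3% of the 68 genes between VTA and S1 (34.4% of all genes) and in 52.9% between VTA and NAc (26.4%). The shares were 54.4% between VBT and S1 (32.1%), 51.5% between VBT and PrL (30.6%) and 51.5% between VBT and NAc (27.6%). They were 47.1% between S1 and NAc (17.2%), 42.6% between VTA and PrL (30.7%), 38.2% between VTA and VBT (19.4%) and 27.9% between PrL and NAc (11.8%). The 2 cortical regions were the closest, with 20.6% of the channel genes and 6.81% of all genes. In S1 Kcnk4, Kcnip2, Kcnh4, Kcns1, Kcng4, Kcnt1 and Kcnh7 were among those above PrL, and in PrL Kcnd3, Kcna5, Kcnf1, Kcng2 and Kcng1 lay above S1.

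Not tested over the regions were 9 genes: Kcna7, Kcna10, Kcne1, Kcne3, Kcnk7, Kcnk16, Kcnk18, Kcnmb3 and Kcnv2. Their highest level in any library was 0.489 CPM, for Kcnk7. Kcnk18, the TRESK gene of sensory ganglia, had 4 counts over 3 libraries. A count of 0 in the shallowest library allows up to 3 counts, or 0.130 CPM, which covers counting error only. The exons of 20 of the 77 genes overlap a gene on the other strand, and since nothing says whether counting used the strand, reads of the 2 genes cannot be told apart there. Among them are Kcnma1 (1016 bases), Kcnmb4 (1048 bases), Kcnk2 (604 bases) and Kcnip4 (267 bases).

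The exposure was then compared with water within each region. A fentanyl difference is the log2 ratio of fentanyl to water, tested in females, in males, as the average of both sexes, and as the male minus the female difference. In VBT, S1 and PrL no channel gene passed in any of these tests. In NAc 2 passed in males. In VTA 6 passed in males and 7 on the average, and none in females.

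In NAc males, Kcna3 and Kcnh1 fell. These 2 of 65 tested genes are read against 0.662% of all 19480 genes. Kcna3 was at 5.19, 3.25, 3.47, 4.02 and 5.69 CPM in the 5 fentanyl males and at 7.48, 8.48, 8.38, 8.44 and 7.29 CPM in the 5 water males. Every fentanyl male lay below every water male, with means of 4.33 and 8.01 CPM. The fentanyl difference was -0.86 ± 0.17 (adjusted p = 0.0343, edgeR's quasi-likelihood test).

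In females Kcna3 was at 8.42, 6.08, 8.54, 8.82 and 6.31 CPM with fentanyl and at 7.88, 4.60, 6.38, 7.42 and 8.11 CPM with water. The groups overlapped. The male minus female difference was -1.0 ± 0.24, and it did not pass (adjusted p = 0.0822, edgeR, and 0.0082 with the Wald test of DESeq2). The promoter window of Kcna3 printed above held 31 CpG, the most of the 4 shown.

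Kcnh1, at chromosome 1 from 192190774 to 192510159, encodes the EAG1 channel. In NAc it was at 89.7, 94.5, 106, 92.7 and 97.1 CPM in fentanyl males and at 119, 120, 127, 128 and 118 CPM in water males. These groups did not overlap, and the difference was -0.31 ± 0.07 (adjusted p = 0.0415, edgeR). Females had 114 to 137 CPM with fentanyl and 124 to 153 with water, and these overlapped.

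The Kcna3 call was lost in 6 and the Kcnh1 call in 12 of 20 fits that each left out 1 NAc library. The differences kept their sign in these fits. Leaving out each NAc library in turn gave Kcna3 differences between -0.95 and -0.78 with an adjusted p of up to 0.116 (edgeR), and Kcnh1 differences between -0.36 and -0.30 with up to 0.120. Both calls were lost without male fentanyl 2 or 3 or without any 1 of male water 1 to 4. The Kcnh1 call alone was lost without male fentanyl 1 or 4, female fentanyl 2 or 3, or female water 4 or 5. Without male fentanyl 5, 5 channel genes passed, as did 4.12% of all genes. Without NAc female water 1 and 5, the libraries with cortex markers, the values were -0.87 (adjusted p = 0.0387, edgeR) for Kcna3 and -0.31 (0.0387) for Kcnh1. With the replicate number of the labels as a block in the fit, neither Kcna3 nor Kcnh1 passed in males.

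Microglia scores were 5.59 ± 0.126 in fentanyl and 5.43 ± 0.161 in water males of NAc, and cortex scores 4.07 ± 1.23 and 4.24 ± 0.249. Oligodendrocyte precursor scores were 5.59 ± 0.186 and 5.82 ± 0.0945, and olfactory bulb scores 1.28 ± 0.268 and 1.68 ± 0.434, both lower with fentanyl. The part of these markers in the 2 results was not tested. With offsets for GC content, Kcna3 was at -0.82 (adjusted p = 0.0255, edgeR) and Kcnh1 at -0.29 (0.0350), where 2.85% of all genes passed. With offsets for exon length 1 of the 2 passed (0.842% of all genes): Kcna3 had an adjusted p of 0.0273 and Kcnh1 of 0.0978 (edgeR). Without a filter on low counts 1 passed as well (0.213% of all genes), with 0.0222 for Kcna3 and 0.0564 for Kcnh1 (edgeR). Spearman's rho across genes between exon length and a library's level relative to the NAc mean was -0.445 to -0.0179 in fentanyl males and -0.212 to 0.378 in water males. The ranges overlapped, but the means were of opposite sign, at -0.266 ± 0.205 and 0.165 ± 0.229 (SD, n = 5 each).

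In 4 channel genes the male groups of NAc did not overlap, against 3.5% of all genes: Kcna3, Kcnh1, Kcnn3 and Kcng3, all lower with fentanyl. Kcng3 was at 3.05, 1.78, 1.82, 3.74 and 2.56 CPM with fentanyl and at 5.25, 4.69, 5.32, 6.61 and 3.92 CPM with water.

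**Figure D4:**
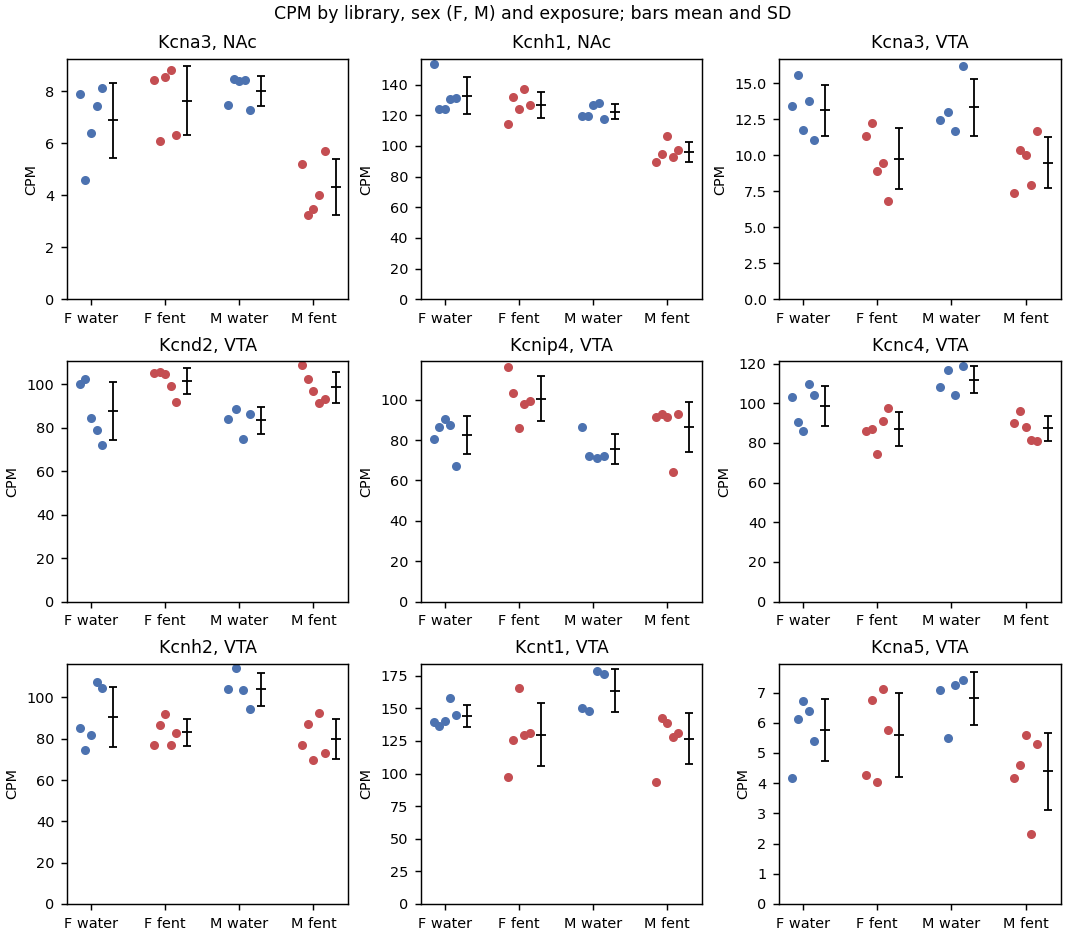
CPM by library for channel genes called in NAc males or in VTA, with females and males, water (blue) and fentanyl (red) apart, and bars for the mean and SD. In NAc males the 5 fentanyl values of Kcna3 and of Kcnh1 lie below all 5 water values, and in VTA males the fentanyl and water values of Kcnc4 do not overlap either.

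In VTA males, 6 of 68 channel genes passed, where 22% of all 19822 genes did, so their share was below that of all genes. The A-type gene Kcnd2 rose (11% of all genes rose), and Kcnc4, Kcnh2, Kcna3, Kcna5 and Kcnt1 fell (11% of all genes). On the average of the sexes 7 passed, where 23.1% of all genes did: Kcnd2 and Kcnip4 rose (11.1% of all genes), and Kcnc4, Kcna3, Kcne2, Kcnh2 and Kcnt1 fell (12%). In females 0 channel genes and 0 of all genes passed with edgeR, with 9 channel genes and 12.7% of all genes at an unadjusted p under 0.05, and DESeq2 called 0 channel genes and 0.444% of all genes.

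Kcna3 was the Kv1 gene called in both tests of VTA. It was at 7.40, 10.3, 10.0, 7.94 and 11.7 CPM in fentanyl males and at 12.5, 13.0, 11.7 and 16.2 CPM in water males. Females had 11.4, 12.2, 8.90, 9.46 and 6.82 CPM with fentanyl and 13.4, 15.6, 11.8, 13.8 and 11.1 with water. Female groups overlapped and male groups met without overlap. The difference was -0.46 ± 0.15 in males (adjusted p = 0.0343, edgeR), -0.44 in females (adjusted p = 0.286, edgeR) and -0.45 ± 0.10 on the average (adjusted p = 0.00486, edgeR).

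Kcnd2, at chromosome 6 from 21215503 to 21729805, was at 109, 102, 97.1, 91.3 and 93.5 CPM in fentanyl males of VTA and at 83.9, 88.9, 74.8 and 86.6 CPM in water males. The male groups did not overlap, and the difference was 0.28 ± 0.09 (adjusted p = 0.0361, edgeR). Females had 91.7 to 106 CPM with fentanyl and 71.99 to 102 with water. Its partner Kcnip4, at chromosome 5 from 48389502 to 49524907, had an average difference of 0.25 ± 0.07 (adjusted p = 0.0146, edgeR). Kcnip4 lay between 85.9 and 116 CPM in fentanyl females and between 66.9 and 90.4 in water females, and between 64.4 and 93.1 in fentanyl males and 71.3 and 86.7 in water males.

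Kcnc4, at chromosome 3 from 107438303 to 107459552, was at 89.975, 96.2, 88.0, 81.3 and 81.0 CPM in fentanyl males of VTA and at 108, 117, 104 and 119 CPM in water males. Its difference was -0.32 ± 0.09 in males (adjusted p = 0.0128, edgeR) and -0.26 ± 0.06 on the average (0.00478). Kcnh2, at chromosome 5 from 24319589 to 24351604, was at 77.0, 87.2, 69.7, 92.2 and 73.0 CPM in fentanyl and at 104, 114, 104 and 94.5 CPM in water males. Neither gene overlapped between the male groups. The Kcnh2 difference was -0.34 ± 0.11 in males (adjusted p = 0.0318, edgeR).

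Kcna5 was at 4.17, 4.59, 5.59, 2.33 and 5.29 CPM in fentanyl males of VTA and at 7.07, 5.51, 7.25 and 7.40 CPM in water males, with a difference of -0.60 ± 0.20 (adjusted p = 0.0413, edgeR). The sodium-activated gene Kcnt1 was at 93.7, 143, 138, 128 and 131 CPM with fentanyl and at 151, 148, 178 and 177 CPM with water. Its male difference was -0.33. Kcna5 groups overlapped and Kcnt1 groups did not.

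The VTA differences moved with the GC content of the transcripts. Spearman's rho between the GC content and the log2 fentanyl difference over the 68 channel genes was -0.43 in males and -0.62 on the average, and -0.60 and -0.61 over all genes, a description across genes, which share the same libraries. The libraries themselves differed in the same way. Across genes with a mean of at least 5 CPM, Spearman's rho between GC content and a library's log2 level relative to the VTA mean was 0.626 to 0.740 in the 4 water males and -0.595 to -0.152 in the 5 fentanyl males, so the male groups did not overlap, and in males exposure and this split cannot be told apart. Kcna3 (60.3% GC), Kcnh2 (60.9%), Kcnc4 (59.6%), Kcnt1 (56.5%) and Kcna5 (54.3%), which were lower with fentanyl, lie above the channel gene median of 52.9%. Kcne2 (45.6%), lower on the average, lies below it. Kcnd2 (44.4%) and Kcnip4 (40.3%), which were higher, lie below it.

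With offsets for GC content in each library, 0 channel genes passed in VTA males, where 2.57% of all genes did, and 1 on the average, where 3.35% did: Kcnk3, a pH-sensitive leak channel gene, at 0.24 ± 0.06 (adjusted p = 0.0262, edgeR). Under these offsets Kcnc4 was at 0.06 and Kcnh2 at 0.09 in males, both with the opposite sign. The relation with GC content turned as well: rho over the 68 channel genes was then 0.29 in males and 0.35 on the average. Kcna3 was at -0.05 in males and -0.17 on the average (adjusted p = 0.531, edgeR). Kcnd2 was at 0.11 on the average (0.224), Kcnip4 at 0.05, Kcna5 at -0.42 in males (0.277) and Kcnt1 at -0.07.

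**Figure D5:**
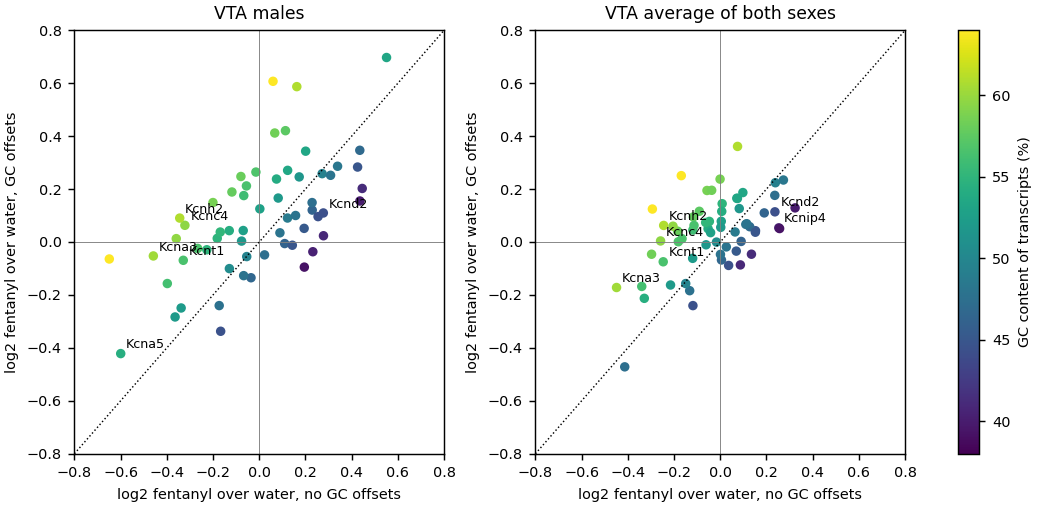
Log2 fentanyl over water in VTA without (x) and with (y) offsets for GC content, for males and for the average of both sexes, 1 point for each channel gene shown, coloured by the GC content of its transcripts. The dotted line marks equal values and names mark genes called without offsets. Genes rich in GC lie above the line. Kcnh3, Kcng4 and Kcne2 in males, and Kcne2 on the average, lie outside the axes.

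The average Kcne2 difference in VTA, -2.75 ± 0.77 (adjusted p = 0.0173, edgeR), came with the 2 water libraries that carried choroid plexus markers. Without them it was -0.52 (adjusted p = 0.284, edgeR). Then 3 channel genes passed in VTA males, Kcnc4, Kcna5 and Kcnd2, and 4 on the average, Kcnc4, Kcnip4, Kcna3 and Kcnd2, against 19.6% and 16.4% of all genes. The VTA male count was 1 without male fentanyl 1, 2 without male water 1 and 3 without male water 2, 4 or 5, where between 13.3% and 17.8% of all genes passed. With 1 library left out, Kcnc4 passed in males in all 19 fits, and Kcnc4, Kcna3, Kcnd2 and Kcnip4 on the average in all 19. In males Kcna3 was lost without fentanyl 1 or 4 or water 1, 2 or 5, and Kcnd2 without fentanyl 1 or 3 or water 1, 4 or 5. Kcna5 was lost without fentanyl 1, 2 or 4 or water 1, 4 or 5, and Kcnh2 without fentanyl 1, 3 or 5 or water 1, 2 or 4. On the average Kcnh2 was lost without female water 4 or 5 or male water 2, and Kcne2 without female water 5 or male water 2. The left-out library male water 3, when kept, brought both VTA counts to 0, with 0.216% and 0.309% of all genes passing. The dopamine neuron score of VTA was 5.2 ± 0.862 in fentanyl and 6.07 ± 0.354 in water males, and the blood score 4.24 ± 0.976 and 3.54 ± 0.728. In females the blood score was 4.70 ± 0.982 with fentanyl and 3.71 ± 0.759 with water. The part of these markers in the VTA values was not tested.

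In VBT, 0 of 66 channel genes passed in females, in males, on the average and in the interaction with edgeR, as did 0% of all genes in each test. At an unadjusted p under 0.05 there were 9, 9, 8 and 10 channel genes, against 7.86%, 8.7%, 8.49% and 8.03% of all genes. The DESeq2 Wald test called Kcnh2 in males (adjusted p = 0.0345, 0.275% of all genes) and 0 in the other 3 tests. Kcnh2 was at 103, 116, 95.3, 142 and 110 CPM in fentanyl males of VBT and at 89.4, 91.4, 84.6, 88.7 and 78.9 CPM in water males. These groups did not overlap, and the edgeR difference was 0.37 (adjusted p = 0.260). Kcnc4 was at 32.8, 42.7, 23.8, 34.9 and 35.3 CPM in fentanyl females and at 18.2, 19.3, 22.4, 19.95 and 17.8 CPM in water females, again apart (0.78, adjusted p = 0.451, edgeR), while males overlapped at 17.1 to 48.9 and 17.0 to 33.8 CPM. The smallest p on the average was that of Kcnk10 (0.23, adjusted p = 0.445, edgeR) and in the interaction that of Kcnh2 (0.46, 0.242).

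In S1, 0 of 66 passed in females (0.142% of all genes), males (0%), the average (1.03%) and the interaction (0%), with 10, 7, 12 and 3 at an unadjusted p under 0.05 (13.9%, 7.15%, 15.8% and 4.14% of all genes). Kcnma1 lay at 324 to 392 CPM in fentanyl and 395 to 454 in water females, without overlap (-0.23, adjusted p = 0.188, edgeR). Kcna6, a Kv1 gene that shares 2355 exon bases with a gene on the other strand, lay at 90.8 to 113 CPM in fentanyl and 72.2 to 82.6 in water males, and its average difference was 0.29 (adjusted p = 0.103, edgeR). DESeq2 called it on the average (adjusted p = 0.0409, 3.27% of all genes) and 0 channel genes in the other 3 tests. The smallest p of the interaction was that of Kcnmb1 (-0.90, adjusted p = 0.957, edgeR).

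In PrL, 0 of 66 passed in females (0.021% of all genes), males (0%), the average (0.697%) and the interaction (0%), with 6, 15, 16 and 3 at an unadjusted p under 0.05 (9.53%, 12%, 19.1% and 2.59% of all genes). The silent subunit gene Kcnf1, highest in PrL, lay at 215 to 262 CPM in fentanyl and 192 to 221 in water males, and at 209 to 233 and 196 to 226 in females. Its average difference was 0.15 (adjusted p = 0.0812, edgeR, and 0.0199 with DESeq2, which called 4.08% of all genes there and 0 channel genes in the other 3 tests). Kcnh4 lay at 11.1 to 14.1 CPM in fentanyl and 14.7 to 25.0 in water females (-0.51, adjusted p = 0.274, edgeR). Kcng4 had the smallest p of the interaction (-1.14, adjusted p = 0.999, edgeR).

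The remaining NAc tests gave 0 of 65 in females, the average and the interaction, with 0% of all genes in each and 15, 16 and 11 channel genes at an unadjusted p under 0.05 (9.03%, 12% and 15.2% of all genes). Kcnn1 had the smallest p in females (-0.79, adjusted p = 0.544, edgeR), and Kcnh1 on the average (-0.19, 0.222). DESeq2 called 0 in females, Kcnh1 on the average (adjusted p = 0.0430, 0.554% of all genes) and Kcna3 and Kcng3 in the interaction (2.37% of all genes). In the VTA interaction 0 passed (0% of all genes, 4 channel genes and 11.4% of all genes at an unadjusted p under 0.05, 0 with DESeq2), with Kcnk3 first at -0.40 (adjusted p = 0.420, edgeR). The striatum score of NAc was 8.49 ± 0.252 in fentanyl and 7.81 ± 0.558 in water females, and with that score as a covariate 1 channel gene passed in the NAc interaction, as did 0.298% of all genes.

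Fentanyl and water libraries of 1 sex did not overlap in 0 to 6 channel genes per region. The counts were 1 in VTA females (1.61% of all genes), 6 in VTA males (22.4%), 2 in VBT females (2.06%), 1 in VBT males (0.967%), 5 in S1 females (4.22%), 2 in S1 males (1.72%), 1 in PrL females (2.18%), 1 in PrL males (2%) and 0 in NAc females (0.755%). In S1 females these were Kcnd1, higher, and Kcna2, Kcnq3, Kcnh7 and Kcnma1, lower.

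Genes whose products bind or place these channels were counted by the same tests. Of 13 such genes 10 were tested, and 9 of them differed between the regions, as did 90.7% of all genes. In VBT 4 were higher and 3 lower, near the 33.7% and 33.4% of all genes, among them Cntn2, which gathers Kv1 channels beside the node of Ranvier (1.51), and Lgi1, a secreted partner of Kv1 channels (-1.51). For fentanyl only Lgi1 passed, in VTA males (0.32 ± 0.08, adjusted p = 0.00937, edgeR) and on the VTA average (0.26 ± 0.06, adjusted p = 0.00311, edgeR). In these tests 22% and 23.1% of all genes passed. With offsets for GC content Lgi1 was at 0.13 in males (adjusted p = 0.327, edgeR) and 0.12 on the average (0.155), and it did not pass.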

How the data were processed

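RNA sequencing was analysed in 98 of the 99 libraries. Punches were extracted with Trizol and MicroElute columns and 10 ng of RNA went into SMART-Seq v4 libraries, per the labels. The deposited values are read counts per gene, unnormalized, 1 file a library, made by the authors with HTSeq on GRCm38 per the submitters' processing notes. The aligner, the annotation release and whether strand was used are not given in the sources used here. The 5 closing lines of unassigned reads were left out of totals and tests. Of 55335 identifiers, 55154 matched GENCODE M21, which gave symbols, positions, exon lengths and GC contents. CPM values were computed from these counts over the total of all genes.

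For fentanyl, edgeR 4.0.16 (R 4.3.3) fitted 1 region at a time with its quasi-likelihood test (TMM, filterByExpr, robust dispersion, 1 mean per sex and exposure), and for regions it fitted the 48 water libraries together with 1 mean per region and sex. The region fit treated libraries of different regions as independent, though same-numbered ones may come from the same mouse. Benjamini-Hochberg adjustment ran over all genes tested. Promoters, counts and marker scores (mean log2 of CPM plus 1) were computed in Python 3.11.15 with pandas 2.3.3, numpy 2.4.6 and scipy 1.17.1. The fits were tested on simulated data.

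The genes and lists were chosen with earlier results of these data known. The rule for named genes took, per region, the 4 highest and 3 lowest called differences of at least 2-fold, per fentanyl test up to 4 called genes in each direction or else the gene with the smallest p, the 10 highest levels per length and the highest of each family. Other genes, among them those whose libraries did not overlap, were named after their values were seen. Some genes of the set are counted but not reported by name here. Alternatives were DESeq2 1.42.0 and its size factors, no filter, the replicate number as a block, offsets for GC content or exon length, reads outside exons as a covariate, 1 sex or the fentanyl libraries alone, and each library left out. Fits without libraries that carried neighbouring tissue, with a striatum covariate, or with GC offsets and the block together were added after seeing the data.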

Additional observations from a re-analysis of the deposited data

Results flagged for a closer look

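Single libraries stood apart from the rest of their group in 9 of 125 comparisons by Dixon's test. Chance flags about 1 in 20 groups, which gives 6.2 here. The choroid-associated subunit gene Kcne2 was at 7.80 CPM in VTA male water 2, against 0.308 to 0.425 in the others of its group, and at 4.33 CPM in VTA female water 5, against 0.158 to 0.515. Kcnk13 was at 36.4 CPM in VBT male water 3, against 15.3 to 26.1 in the other VBT water libraries. The KChIP gene Kcnip4 was at 64.4 CPM in VTA male fentanyl 4, against 91.4 to 93.1, and at 86.7 CPM in VTA male water 1, against 71.3 to 72.3. The leak channel gene Kcnk3 was at 48.3 CPM in VTA female fentanyl 3, against 38.3 to 40.8, and at 41.0 CPM in VTA female water 4, against 33.4 to 34.8. Kcnh4 was at 25.0 CPM in PrL female water 2, against 14.7 to 17.3. Kcnh1 was at 153 CPM in NAc female water 1, against 124 to 131, and that library also carried cortex markers.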

How the results depend on the processing

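The counts of channel genes called over regions stayed within 1.5 times of their values under every alternative run, and without the 8 water libraries with neighbouring tissue they were 67 over all regions, 57 for VTA and for VBT, 52 for S1, 54 for PrL and 55 for NAc. Without 3 more libraries with choroid plexus markers they were 68, 58 for VTA and for VBT, 50 for S1, 51 for PrL and 56 for NAc. For both fits the shares of all genes called are not given here, so these counts are not read against them. The fentanyl counts moved more. In VTA males 6 became 0 with offsets for GC content, 0 with these offsets and the replicate block, 0 with VTA male water 3 kept, and 3 without the 2 libraries with choroid plexus markers. On the VTA average 7 became 1 with GC offsets, 1 with GC offsets and the block, 0 with VTA male water 3 kept, 4 without those 2 libraries, and 11 with reads outside exons as a covariate (28.8% of all genes). In NAc males 2 became 1 without a filter and 1 with exon length offsets. DESeq2 called 1 in VBT males, 1 on the S1 average, 1 on the PrL average, 1 on the NAc average and 2 in the NAc interaction. The NAc average had 5 with reads outside exons as a covariate (2.02% of all genes), and the NAc interaction 1 with the striatum covariate (0.298%). Of the 10 highest levels per length, 5 were also among the 10 highest without length. The causes were not tested.

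Signs turned in VTA only. Kcnc4 in males was 0.063 with GC offsets, 0.0887 with these and the block, and 2.1e-06 with VTA male water 3 kept. On the average Kcnc4 was 0.0039 with GC offsets and 0.0188 with the block added. Under the same 2 settings Kcnh2 was 0.0903 and 0.0953 in males and 0.0625 and 0.0649 on the average.

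Leaving out 1 library at a time gave 1 to 7 in VTA males, 4 to 9 on the VTA average (4 without female water 5), 0 to 1 in VBT males (1 without male fentanyl 3), 0 to 1 on the S1 average (1 without female fentanyl 1 or female water 5), 0 to 1 on the PrL average (1 without male water 4), 0 to 5 in NAc males and 0 to 4 in the NAc interaction (4 without female water 3, with 2.27% of all genes, 1 without female fentanyl 5 or male fentanyl 5). The other fentanyl tests stayed at 0. Most of these fits are given without their share of all genes, so the ranges describe the fits and not the channel genes.

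The labels give groups the same replicate numbers and do not say whether same-numbered libraries share a mouse. The correlations below cannot decide this, since libraries of unlike number were not compared. Across regions, deviations of same-numbered libraries correlated over 0.1 in 11 of 192 pairs (median 0.02), 7 of them among the 10 region pairs of male fentanyl 1 and 3 among those of female water 4. Within a region, same-numbered fentanyl and water libraries did so in 6 of 48 pairs (median 0.03, highest 0.24). With the replicate block, 3 genes were called in VTA males, 5 on the VTA average and 0 in NAc males, where Kcna3 had an adjusted p of 0.0566 and Kcnh1 of 0.0796 (edgeR). The shares of all genes called with the block are not given here, so these counts are not read against them. Depth limits most the 9 genes not tested over regions, above all Kcnk18 with 4 counts in all, and 65 of the 77 genes had a count in every library.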
